A study of Gallus gallus with 8 samples.

Results

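The genes described here encode collagens, laminin chains, integrin subunits and a few matrix proteins that accompany them. Members were chosen by gene symbol among the probe sets of the chicken genome array. Symbols of the form COL, LAM or ITG with a chain number were taken, with SPARC, TNC, NID1, NID2 and VCAN, while ITGA4, ITGA5, ITGAV, ITGB1 and ITGB3 were left out. This gave 73 of the 13009 genes named on the array, measured by 194 of 38439 probe sets without control names. They comprised 41 collagen chains, 11 laminin chains, 2 nidogens, 12 integrin subunits, and SPARC, TNC and VCAN. The symbol rule also took in 4 genes whose names begin with ITGB but which encode no integrin subunit, ITGBL1, ITGB1BP1, ITGB1BP3 and ITGB3BP. Each gene was represented by its brightest probe set, and 57 of the 73 were bright enough to be tested.

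Messenger RNA was compared between tissues dissected from chick embryos at Hamburger and Hamilton stage 8, when the cranial neural folds rise beside the neural plate. One group held the cranial neural fold, whose cells include prospective crest, and the other the ventral cranial neural plate. Each group had 4 arrays of 1 sample each. The labels name no treatment, strain or engineered allele. The study's design text counts 80 to 114 embryos in all or per sample, without saying which, nor whether samples were separate pools. The p-values set the difference between the tissues against how far samples of the same tissue vary, and part of that spread may be technical.

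Collagens are trimers of chains that carry a long glycine-rich triple helix. Fibrillar types form the fibres of the interstitial matrix, and type IV forms the sheet of the basement membrane, the thin matrix on which an epithelium such as the neural plate rests. Laminins are heterotrimers of an alpha, a beta and a gamma chain that polymerise into the other main sheet of the basement membrane, and nidogens bridge the sheets. Integrins are receptors of an alpha and a beta chain that bind these proteins outside the cell and link to actin inside it. Neural crest cells leave the neural folds by crossing a basement membrane, and they then migrate through matrix that contains laminins, collagens and versican.

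Values below are log2(intensity + 16) after quantile normalization, called log2 intensity, and changes are neural fold minus neural plate. The tissue labels were borne out by the regional markers. PAX7, TFAP2B, SNAI2 and MSX2, factors of the neural plate border and crest, were higher in neural fold by 6.14, 5.36, 4.65 and 4.82 on the log2 scale (limma adjusted p = 7.7e-05 to 0.00081). NKX6-1, FOXA2 and SHH, which belong to the ventral neural tube and the midline, changed by -5.13, -3.42 and -2.31. Arrays of 1 tissue correlated at 0.895 to 0.952. The array numbered 1 stood apart in both tissues, with median intensities of 195.8 and 182.3 against 105.4 to 121.7 on the other 6. Counts are therefore given below with and without these arrays.

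Few of these matrix and integrin genes passed the test between the tissues. Of the 57 tested members, 3 fell in neural fold, the integrin-like gene ITGBL1, the transmembrane collagen COL23A1 and the proteoglycan VCAN, and 0 rose (limma adjusted p under 0.05), so that 5.26% fell. Over all 10279 genes tested, 1.75% passed in either direction, 0.924% as higher and 0.827% as lower. At an unadjusted p under 0.05, 5 members were higher and 7 lower, 21.1% of members against 9.07% of all genes tested. The median change of the members was -0.06, and that of all genes was -0.01. The members' median was above 0 without plate array 1 (0.06) and without fold array 3 (0.01), so its sign rests on single arrays. Of the members, 26 had a change above 0 and 31 below it. The means of 6 members were more than 2-fold apart, against 386 of the 10279 genes tested, and 2 of these 6, ITGBL1 and COL23A1, passed the test. In 7 members the 4 fold and 4 plate values did not overlap (12.3%), against 8.06% of all genes tested. Of these, 3 were higher in neural fold, where 3.55% of all genes were, and 4 lower, where 4.50% were.

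Without both arrays numbered 1 the count was 1 higher (LAMA5) and 2 lower (COL23A1 and VCAN), where 3.16% of all genes were called. A term for these arrays was added after seeing the data. With it in the fit, 3 members were higher (COL12A1, LAMA5 and LAMB2) and 6 lower (COL1A1, COL23A1, ITGA2, ITGA6, ITGBL1 and VCAN). In that fit 4.84% of all genes were called. On the values as deposited, with no normalization between arrays, the split was 2 higher (COL12A1 and LAMA5) and 3 lower, where 1.87% of all genes were called. With the replicate number as a block, 0 were higher and the same 3 lower, where 2.30% of all genes were called.

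**Figure D1:**
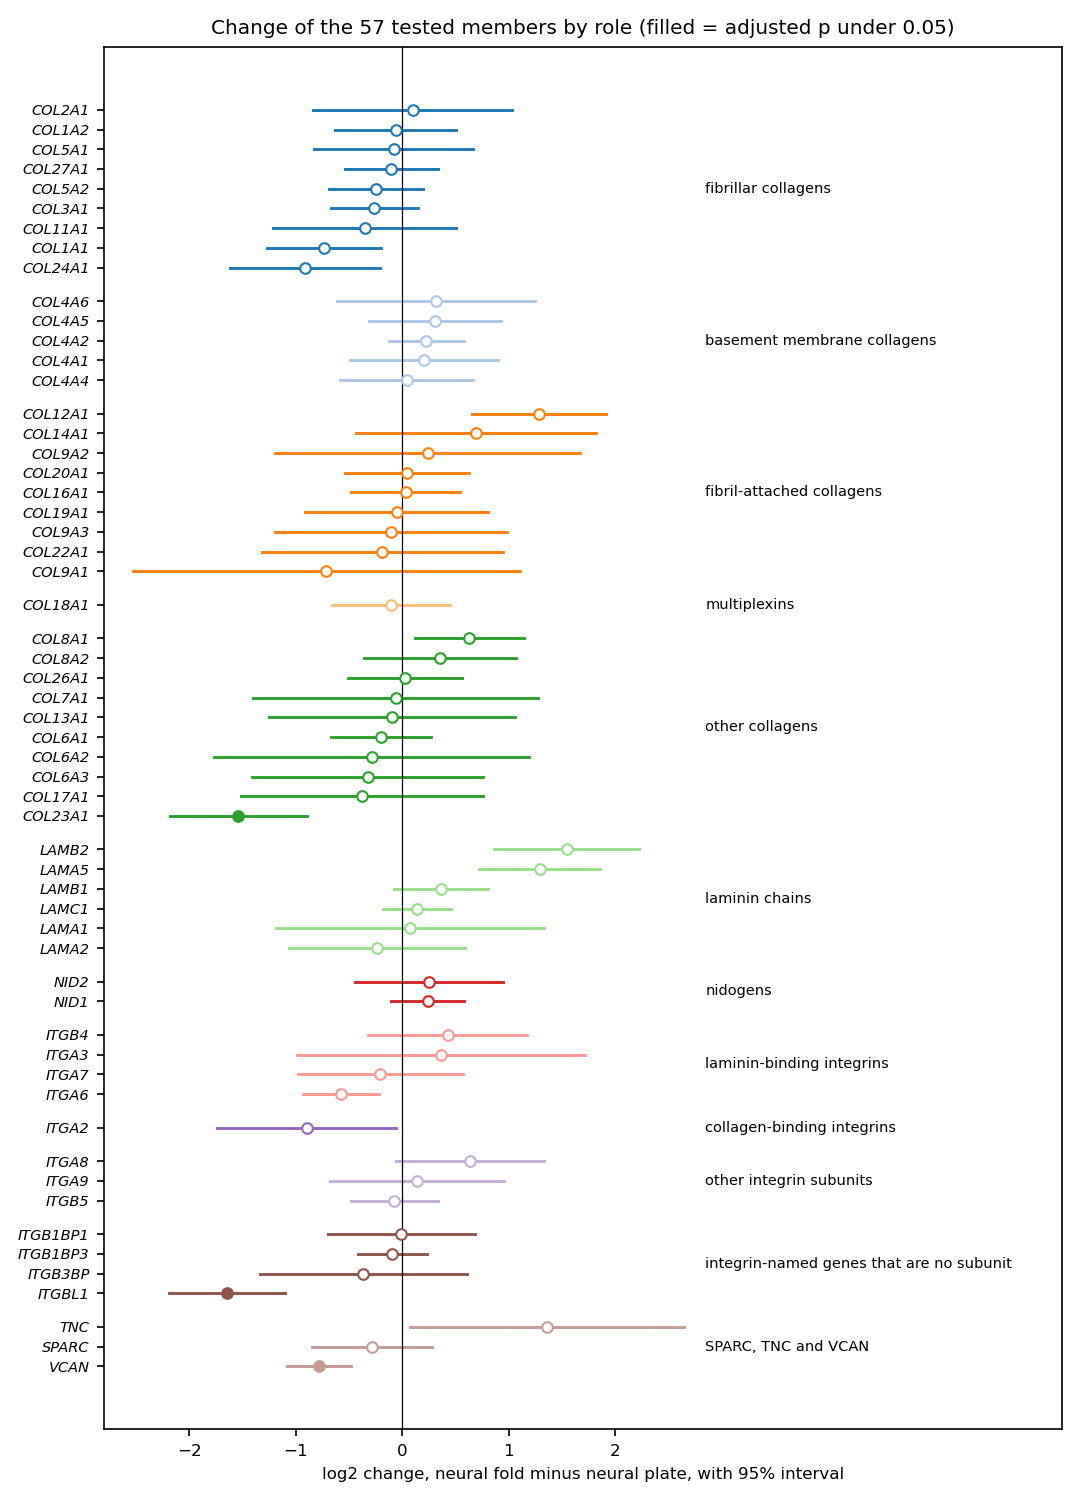
Log2 change from neural plate to neural fold (x axis) for each of the 57 tested members (rows, ordered by role), with the model's 95% interval as a line and a filled point where the adjusted p is under 0.05. Filled points are ITGBL1, COL23A1 and VCAN, all left of 0, and most other intervals cross 0.

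ITGBL1 encodes a protein built from repeats like those in the stalk of integrin beta chains and is not itself a subunit. Its log2 intensity was 6.90, 7.15, 7.67 and 6.66 on neural fold arrays 1 to 4, and 8.75, 9.03, 8.55 and 8.63 on the plate arrays. Every plate array was above every fold array. ITGBL1 was 3.12-fold lower in neural fold (-1.64 ± 0.24, SE, limma adjusted p = 0.014). The call was lost without fold array 2 (adjusted p = 0.057), without plate array 2 (0.055), without plate array 4 (0.055) or without both arrays numbered 1 (0.052). A dimmer ITGBL1 probe set had a change of -1.54 ± 0.72 (adjusted p = 0.66), and the call was lost with the mean of both (0.16).

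COL23A1 encodes a collagen anchored in the cell membrane, with the helix outside the cell. It gave 8.10, 8.96, 8.89 and 8.96 in neural fold, and 9.63, 10.34, 10.55 and 10.54 in neural plate. In each tissue array 1 was the lowest, and every fold array was below every plate array. COL23A1 was 2.91-fold lower in neural fold (-1.54 ± 0.28, limma adjusted p = 0.042). Leaving out 1 array kept this call without plate array 1 (adjusted p = 0.018) and lost it for each of the other 7 (0.057 to 0.16). Without both arrays numbered 1 it passed again (0.0029). The other COL23A1 probe sets, both dimmer, had changes of -0.19 ± 0.29 and -0.10 ± 0.75, so the call rests on the brightest one. The call was also lost with median centring (0.27), no filter (0.098), a pseudocount of 1 (0.054) and the mean over its probe sets (0.53).

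VCAN encodes versican, a large proteoglycan that binds hyaluronan and carries chondroitin sulphate. Its log2 intensity was 12.06, 11.98, 12.00 and 11.90 in neural fold and 12.85, 12.69, 12.74 and 12.78 in neural plate. The spread within a tissue was small (SD 0.07 in both, n = 4), and the tissues were far apart on that scale. VCAN was 1.72-fold lower in neural fold (-0.78 ± 0.13, limma adjusted p = 0.029). A further VCAN probe set, nearly as bright, did not overlap between the tissues either (-0.53 ± 0.16, adjusted p = 0.26). The call held without fold array 1 (0.035) and without plate array 1 (0.047), and was lost without any 1 of the other 6 arrays (0.084 to 0.12). It was also lost with median centring in place of quantile normalization (0.74) and when dim probe sets were kept (0.12).

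**Figure D2:**
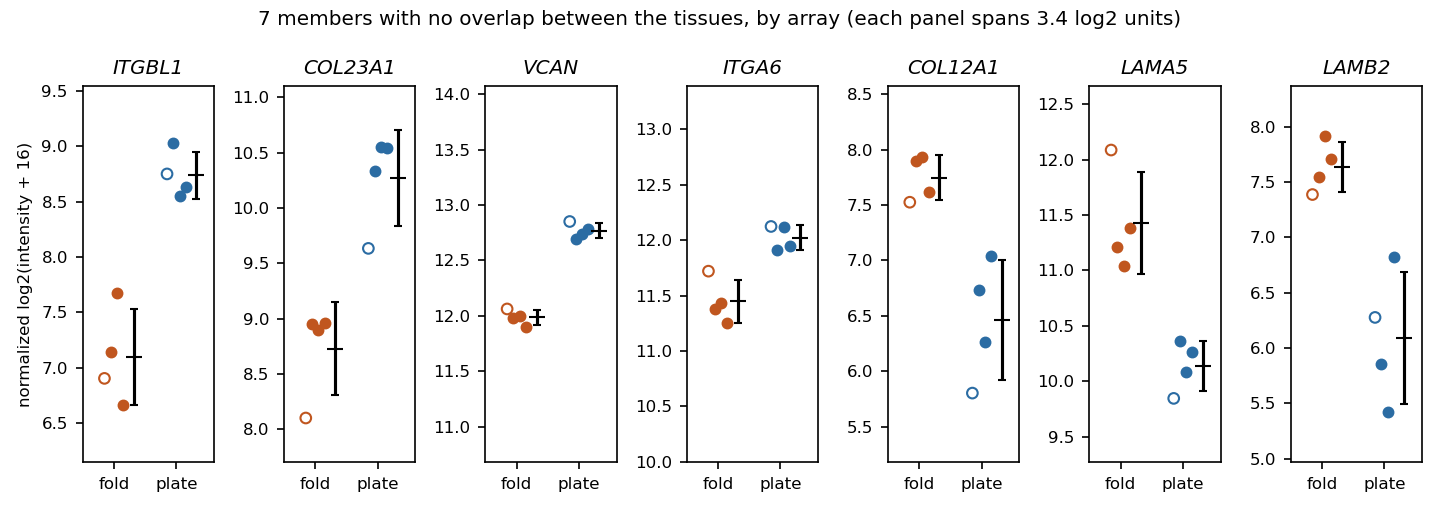
Normalized log2(intensity + 16) on each array (y axis, 1 panel per gene, all of equal height in log2 units) for the 7 members whose tissues do not overlap, neural fold in orange and neural plate in blue. Open circles are the arrays numbered 1, and black marks are the mean ± SD of 4 arrays. ITGBL1, COL23A1, VCAN and ITGA6 lie lower in neural fold, and COL12A1, LAMA5 and LAMB2 higher.

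Markers of other tissues also differed between the dissected pieces, beside all members described here. Notochord and prechordal plate markers had 5 of 7 lower in neural fold, where GSC was above the background limit on 0 arrays. SHH and FOXA2, given above as genes of the ventral neural tube and the midline, were among the 5. NOTO (-0.37) and NOG (-0.69) overlapped between the tissues and did not pass. The summed intensity of the list ran from 1207 to 1813 in fold and from 12918 to 19472.5 in plate, where CHRD gave the largest part. Head mesoderm markers had 0 of 7 tested past the threshold in either direction, with sums of 1847 to 2102 in fold and 2119 to 3085 in plate. TWIST1 (-1.98), FOXC1 (-0.96) and FOXC2 (-0.87) were lower in fold without overlap. PRRX1, MEOX1, TBX1 and MESP1 overlapped, with changes of -0.29, 0.07, 1.17 and 0.09. Endoderm markers had 1 of 6 tested lower (SOX17), with sums of 1400 to 2452 in fold and 3110 to 4215 in plate. APOA1 gave the largest part of the plate sums and was lower in fold without overlap (-1.42, limma adjusted p = 0.16). HHEX, GATA5, FOXA1 and TTR overlapped, with changes of -0.16, 0.20, -0.37 and 0.43. Blood and endothelial markers had 0 of 4 tested past the threshold, with sums of 692 to 1053 in fold and 1134 to 2403 in plate. LMO2 was lower in fold without overlap (-2.39, limma adjusted p = 0.0504), while KDR, PECAM1 and TAL1 overlapped. In the other direction, surface ectoderm markers had 2 of 6 tested higher in fold (DLX5 and CDH1). TP63 and GATA2 had changes of 0.07 and 0.06, GATA3 of 1.27 and EPCAM of 0.47, none past the threshold. The sums were 16757 to 19636 in fold and 9282 to 11443 in plate, and EPCAM gave the largest part in both tissues. DLX3, also of surface ectoderm, was above the limit on 0 arrays of either tissue. The part of these tissues in the changes of ITGBL1, COL23A1, VCAN and the laminins was not tested. In such bulk samples, fewer cells of a type and less RNA per cell cannot be told apart.

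Among laminins, the chains LAMA5 and LAMB2 lay higher in neural fold without passing the threshold. LAMA5, the alpha chain found in many epithelial basement membranes, gave 12.09, 11.21, 11.04 and 11.38 in neural fold and 9.84, 10.36, 10.09 and 10.26 in neural plate. All 4 fold arrays were above all plate arrays, with fold array 1 highest and plate array 1 lowest. The change was 1.29 ± 0.25 (limma adjusted p = 0.053). It was 0.98 without both arrays numbered 1, and then passed (0.025). It also passed without fold array 1 alone (0.039), and the replicate number as a block gave adjusted p = 0.12.

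LAMB2, a beta chain that can replace LAMB1 in the trimer, gave 7.39, 7.54, 7.91 and 7.71 in neural fold and 6.28, 5.86, 5.42 and 6.82 in neural plate. The tissues did not overlap, but 1 of 4 plate arrays was above the background limit. The change of LAMB2 was 1.54 ± 0.30 (limma adjusted p = 0.052), and it passed without plate array 4 (0.030). It did not pass with the replicate number as a block (0.098) or without both arrays numbered 1 (0.085). A dimmer LAMB2 probe set was under the filter, with means of 5.58 in fold and 5.33 in plate, and above the limit on 1 array. The remaining tested chains were closer to 0.

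LAMB1 and LAMC1, the beta and gamma chains of the common laminin trimers, were bright in both tissues. LAMB1 had a change of 0.37 ± 0.19 (95% interval -0.07 to 0.80) and LAMC1 of 0.14 ± 0.14 (-0.18 to 0.46), neither past the threshold. On the probe sets that represent these chains, the intervals leave out a 2-fold difference in either direction. Their dimmer tested probe sets were less precise, with changes of 0.43 ± 0.42 for LAMB1 and of 0.24 ± 0.77 and 0.74 ± 0.64 for LAMC1. LAMA1, an alpha chain of early embryonic basement membranes, had a change of 0.07 ± 0.55 (-1.19 to 1.33). Its interval in this fit does not leave out a 2-fold difference. With the replicate number as a block LAMA1 had a change of 0.07 ± 0.13, and without both arrays numbered 1 of 0.04 ± 0.15. Its 5 tested probe sets had changes of -0.10 to 0.28. LAMA2, the alpha chain of muscle basement membrane, had a change of -0.24 ± 0.36. LAMA3, LAMA4, LAMB3, LAMB4 and LAMC3 were under the filter on dim probe sets and were not tested. NID1 and NID2, the nidogens, had changes of 0.24 ± 0.15 and 0.25 ± 0.30. Of 6 tested laminin chains, 0 passed in either direction, and their median change was 0.25. At an unadjusted p under 0.05, 2 were higher and 0 lower (33.3%, against 9.07% of all genes tested).

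Of the 12 integrin subunits, 8 were tested and 0 passed. At an unadjusted p under 0.05, 0 were higher and 2 lower (25.0%, against 9.07% of all genes tested). ITGA6, an alpha subunit of laminin receptors, gave 11.72, 11.37, 11.44 and 11.26 in neural fold and 12.12, 11.91, 12.12 and 11.95 in neural plate. The plate arrays were all above the fold arrays, by a small margin. The change of ITGA6 was -0.58 ± 0.16 (limma adjusted p = 0.19). A second ITGA6 probe set had a change of -0.61 ± 0.15 (adjusted p = 0.14), again without overlap. With the term for the arrays numbered 1, ITGA6 passed (0.031). It did not pass with the replicate number as a block (0.094) or without both arrays numbered 1 (0.055).

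Other laminin-binding subunits were spread about 0. ITGA3, known from epithelia, had a change of 0.37 ± 0.59, ITGB4, the beta subunit of hemidesmosomes, of 0.43 ± 0.33, and ITGA7, known from muscle, of -0.21 ± 0.34. Among collagen-binding subunits, ITGA2 was the 1 tested. It gave 5.82, 6.56, 7.30 and 6.64 in neural fold and 6.66, 7.78, 7.81 and 7.66 in neural plate, which overlap (-0.90 ± 0.37, limma adjusted p = 0.54). Fold array 3 lay among the plate values. ITGA1 was under the filter and not tested, with 3 of 4 fold arrays and 0 of 4 plate arrays above the background limit. Its fold mean was 1.26-fold above the mean of the plate arrays' background limits. The tissues overlapped, with fold arrays 2 and 3 (6.58 and 5.55) below plate array 1 (6.63). ITGA11 was also under the filter. ITGA8, which binds matrix proteins of the nephronectin type, had a change of 0.64 ± 0.31, ITGA9, a receptor of tenascin, of 0.14 ± 0.36, and ITGB5, a partner of ITGAV, of -0.07 ± 0.18. ITGB2, of leukocytes, and ITGB6, of epithelia, were not tested.

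The 3 further genes with integrin-like symbols did not pass. ITGB1BP1, which binds the tail of the integrin beta 1 chain, had a change of -0.01 ± 0.30. ITGB1BP3, in humans a name of a nicotinamide riboside kinase, had a change of -0.09 ± 0.14, and ITGB3BP, in humans a centromere protein, of -0.37 ± 0.42. Without these genes and ITGBL1, 0 of 53 tested members were higher and 2 lower (3.77% lower, against 0.827% of all genes tested).

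Fibrillar collagens gave no call. Of 9 tested chains, 8 had a change below 0 and 1 above it, the median was -0.24, and 0 passed. At an unadjusted p under 0.05, 0 were higher and 2 lower (22.2%, against 9.07% of all genes tested). Over all genes tested, 5228 of 10279 had a change below 0. The sign also hung on the probe set, since 2 of 5 tested COL1A2 and 1 of 4 tested COL11A1 probe sets had a change below 0. COL1A1, a chain of type I collagen, gave 10.25, 9.62, 9.83 and 9.84 in neural fold and 11.15, 10.66, 10.44 and 10.24 in neural plate. Plate array 4 lay just below fold array 1, so the tissues overlapped (-0.74 ± 0.23, limma adjusted p = 0.32). COL1A1 passed with the term for the arrays numbered 1 (0.027), but not with the replicate number as a block (0.11) or without both those arrays (0.092). Its partner COL1A2, the other chain of the type I trimer, had a change of -0.06 ± 0.25 (95% interval -0.63 to 0.51).

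COL24A1, a minor fibrillar chain, gave 7.13, 8.13, 7.10 and 7.77 in neural fold and 7.80, 8.73, 8.72 and 8.55 in neural plate. Its tissues overlapped, through fold array 2 and plate array 1 (-0.92 ± 0.31, limma adjusted p = 0.37). COL2A1, of cartilage and the notochord sheath, had a change of 0.10 ± 0.41, and COL11A1, which joins it in fibrils, of -0.35 ± 0.37. COL3A1, COL5A1, COL5A2 and COL27A1 had changes of -0.26, -0.08, -0.24 and -0.10.

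Basement membrane collagens had small changes above 0 in all 5 tested chains, from 0.04 to 0.32, with 0 past the threshold. Of all genes tested, 5051 of 10279 had a change above 0. At an unadjusted p under 0.05 there were 0, against 9.07% of all genes tested. COL4A1 and COL4A2 form the widespread type IV trimer and lie next to each other on the RefSeq assembly GRCg7b. They had changes of 0.20 ± 0.30 and 0.23 ± 0.15. The neighbours COL4A5 and COL4A6 had changes of 0.31 ± 0.27 and 0.32 ± 0.41, and COL4A4 of 0.04 ± 0.27. A dimmer COL4A2 probe set rose in neural fold (1.16 ± 0.21, limma adjusted p = 0.038), where 1.28% of all probe sets were called, while the 4 other tested COL4A2 probe sets had changes of 0.07 to 0.27. COL4A3, the neighbour of COL4A4, was not tested.

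Further neighbouring pairs had 0 genes past the threshold. COL5A2 and COL3A1 had changes of -0.24 ± 0.19 and -0.26 ± 0.18, and COL6A1 and COL6A2, chains of the beaded type VI filaments, of -0.20 ± 0.21 and -0.29 ± 0.65. COL9A1 and COL19A1 had changes of -0.71 ± 0.80 and -0.05 ± 0.38. Without both arrays numbered 1, that of COL9A1 was 0.04 ± 0.13. These are values side by side and no test of likeness.

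Of 9 tested collagens that attach to fibrils, COL12A1 lay apart. It gave 7.53, 7.90, 7.94 and 7.62 in neural fold and 5.80, 6.73, 6.26 and 7.04 in neural plate, with 2 of 4 plate arrays above the background limit. All fold arrays were above all plate arrays, and plate array 1 was lowest. The change of COL12A1 was 1.29 ± 0.27 (limma adjusted p = 0.082). It passed on the values as deposited (0.035) and with the term for the arrays numbered 1 (0.018). It did not pass with the replicate number as a block (0.083) or without both arrays numbered 1 (0.066). Dimmer COL12A1 probe sets had changes of 0.48 ± 0.42 and 0.69 ± 0.48. COL14A1, its close relative, had a change of 0.70 ± 0.49, with 3 of 4 fold and 2 of 4 plate arrays above the limit. COL9A2, COL9A3, COL16A1, COL20A1 and COL22A1 had changes of -0.19 to 0.24. In this role 0 of 9 passed, and COL21A1 was not tested. At an unadjusted p under 0.05, 1 was higher and 0 lower (11.1%, against 9.07% of all genes tested).

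The multiplexin COL18A1, a basement membrane collagen that carries heparan sulphate, had a change of -0.10 ± 0.24, and COL15A1 was not tested. COL8A1, a chain of a short network collagen, gave 8.07, 8.09, 7.40 and 7.81 in neural fold and 6.90, 7.64, 7.15 and 7.16 in neural plate. Fold array 3 lay below plate array 2 (0.63 ± 0.23, limma adjusted p = 0.41). COL8A2, its partner chain, had a change of 0.35 ± 0.31. COL6A3, COL7A1, COL13A1, COL17A1 and COL26A1 had changes of -0.38 to 0.02. COL10A1, COL25A1, COL28A1 and COL6A6 were not tested.

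SPARC, a collagen-binding matricellular protein, was bright in both tissues and had a change of -0.28 ± 0.25 (95% interval -0.85 to 0.28). TNC, the adhesion-modulating protein tenascin-C, gave 7.25, 8.09, 7.53 and 7.82 in neural fold and 6.89, 4.56, 7.45 and 6.35 in neural plate. Its plate arrays were spread wider than its fold arrays (SD 1.25 against 0.36) and overlapped with them. TNC had a change of 1.36 ± 0.56 (limma adjusted p = 0.55), with 3 of 4 plate arrays above the background limit.

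Of the 73 members, 41 were above the background limit on all 8 arrays (56.2%, against 63.3% of all named genes) and 4 on 0 arrays (5.48%, against 5.10%). The 4 were LAMA3, COL10A1, COL15A1 and ITGB6. In 26 members more than 1 probe set was tested, and in 21 of them all tested probe sets had the same sign. Members whose probe sets differed in sign were COL11A1, COL1A2, COL2A1, ITGB4 and LAMA1. Their changes ran from -0.59 to 0.69. A further COL6A1 probe set, nearly as bright as the one used, did not overlap between the tissues (-1.70 ± 0.52, limma adjusted p = 0.29).

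**Figure D3:**
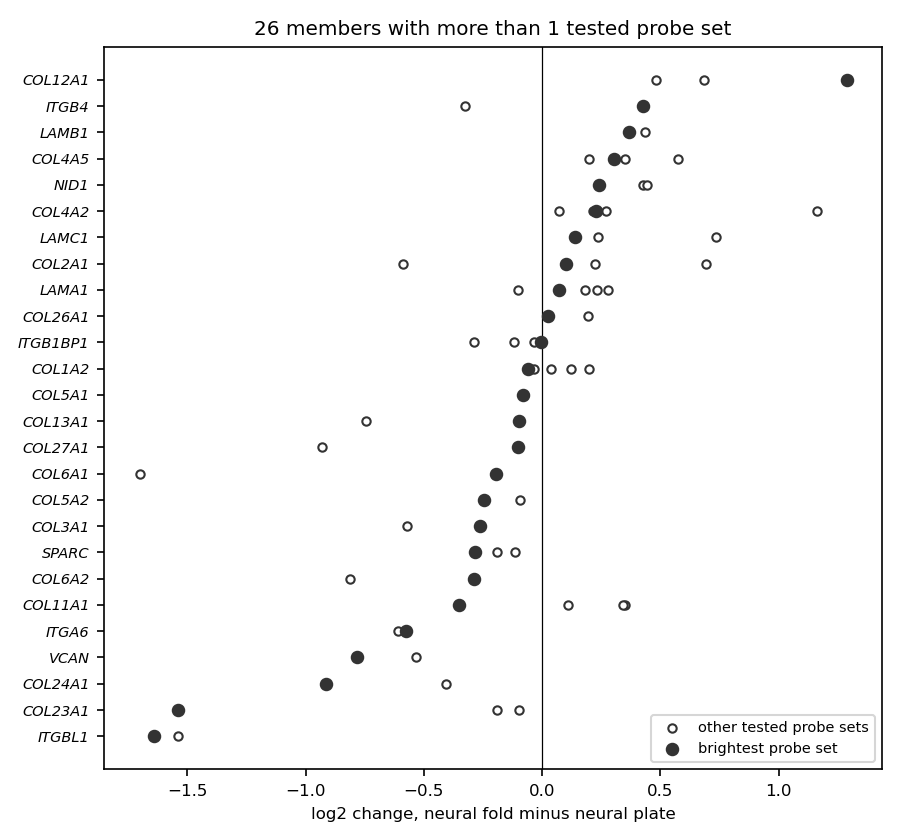
Log2 change from neural plate to neural fold (x axis) of every tested probe set for the 26 members with more than 1 (rows), filled for the brightest probe set, which represents the gene, and open for the others. The probe sets of ITGBL1, ITGA6 and VCAN lie on 1 side of 0, while the open points of COL23A1 sit near 0.

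Several members stood apart on the arrays numbered 1 in both tissues. The median SD within a tissue was 0.46 for tested members and 0.34 for all genes tested, and without the arrays numbered 1 it was 0.25 and 0.18. In 9 members array 1 differed from the mean of the other arrays by more than 1 log2 unit in the same direction in both tissues (15.8%, against 8.80% of all genes tested). LAMA1 gave 11.60 on fold array 1 and 9.69 to 9.81 on the other fold arrays, and 11.43 on plate array 1 and 9.50 to 9.99 on the other plate arrays. COL2A1, COL4A6, COL13A1, COL6A2, COL6A3 and ITGA3 were likewise brighter on both arrays numbered 1, and ITGA2 and ITGB3BP dimmer. COL9A1 read 5.10 on fold array 1 and 8.60 to 8.96 on the other fold arrays. The labels do not say what the numbers stand for.

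**Figure D4:**
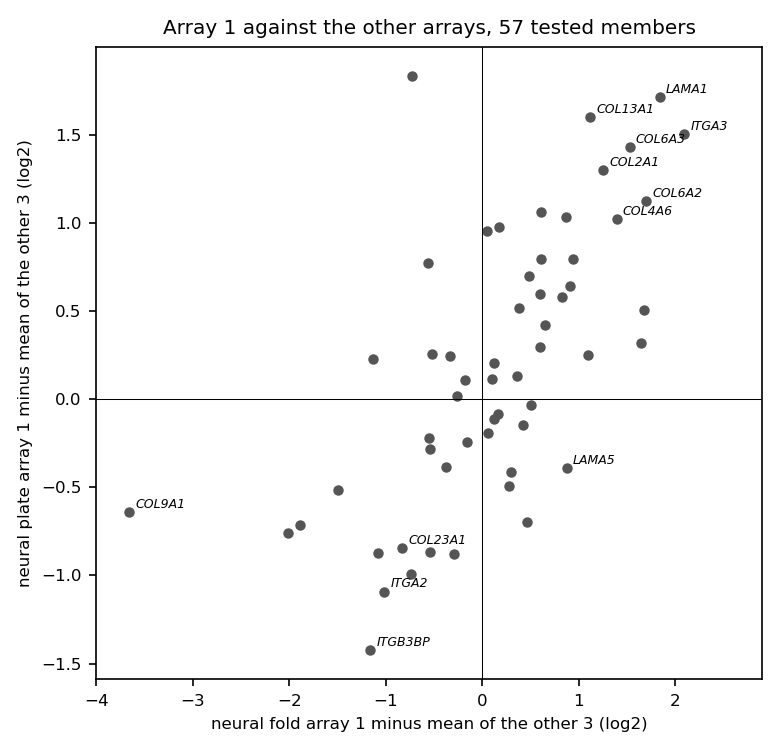
Log2 intensity on array 1 minus the mean of arrays 2 to 4, in neural fold (x axis) and neural plate (y axis), 1 point per tested member. Points at upper right, such as LAMA1 and ITGA3, were brighter on array 1 in both tissues, and COL9A1 lies at -3.66 on the neural fold axis.

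Genes that process collagen, link integrins to actin or make other matrix were set beside the members. Of 29 tested genes of basement membrane and other matrix, 2 fell in neural fold (6.90%, against 0.827% of all genes tested) and 0 rose. At an unadjusted p under 0.05, 3 were higher and 4 lower (24.1%, against 9.07% of all genes tested). POSTN, the matricellular protein periostin, gave 6.00, 6.89, 7.56 and 7.58 in neural fold and 9.94, 11.03, 11.14 and 11.43 in neural plate (-3.88 ± 0.43, limma adjusted p = 0.0042). It was the farthest apart of these genes, and 3 of 4 fold arrays were above the background limit. VTN, vitronectin, an integrin ligand, fell by 1.44 ± 0.17 (adjusted p = 0.0060). HAPLN1, a link protein that ties versican to hyaluronan, had a change of 2.05 ± 0.42 in the direction opposite to VCAN (adjusted p = 0.073). HAPLN1 passed with the replicate number as a block (0.0082) and without both arrays numbered 1 (0.0014). SMOC1, a basement membrane protein, had a change of -1.03 (adjusted p = 0.34) and passed as lower with the block (0.037).

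Of 20 tested collagen processing genes, 0 passed in either direction. At an unadjusted p under 0.05, 3 were higher and 2 lower (25.0%, against 9.07% of all genes tested), and the median was -0.15. That median was -0.05 without fold array 2, -0.09 without plate array 1 and -0.03 with the mean of probe sets. Without overlap between the tissues, 2 genes were higher and 2 lower (20.0%, against 8.06% of all genes tested). The higher were LOXL2 (0.69 ± 0.20, limma adjusted p = 0.22) and SERPINH1 (0.49 ± 0.19, 0.47), and the lower were TLL1 and P4HA1. TLL1, a protease that trims procollagen, had a change of -1.01 ± 0.21 (limma adjusted p = 0.070), and P4HA1, a prolyl hydroxylase subunit, of -0.83 ± 0.18 (0.082). With the replicate number as a block both passed as lower (0.037 and 0.034). Without both arrays numbered 1 they passed as well (0.040 and 0.017).

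Of 29 tested integrin linkage genes, 0 rose and 1 fell (3.45%, against 0.827% of all genes tested). The 1 that fell was ITGBL1, a member listed here too, which has stalk-like repeats and is not itself a link to actin. ITGB1BP1 was also both a member and on this list. No other gene of the list fell. PTK2 had a change of 0.75 ± 0.16 (limma adjusted p = 0.076), without overlap between the tissues. It passed without both arrays numbered 1 (0.027) and with the term for these arrays (0.0069), but not with the replicate number as a block (0.053). At an unadjusted p under 0.05, 2 were higher and 1 lower (10.3%, against 9.07% of all genes tested). The median of the list was 0.13 (0.20 without plate array 4). Of 19 tested matrix receptors other than integrins, 0 passed in either direction, with a median of -0.22. At an unadjusted p under 0.05, 1 was higher and 6 lower (36.8%, against 9.07% of all genes tested). The smallest adjusted p there belonged to SGCD, a sarcoglycan of the dystrophin complex (-0.52 ± 0.17, limma adjusted p = 0.34). The median was -0.14 without fold array 2. With the term for the arrays numbered 1, the proteoglycan SDC1 passed as higher (0.028), and the collagen receptor DDR1 (0.033) and the proteoglycan GPC4 (0.032) as lower. None of these passed with the replicate number as a block or without both arrays numbered 1.

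FN1, the matrix ligand fibronectin, is not covered by the symbol rule and was higher in neural fold, by 1.73 ± 0.15 (limma adjusted p = 0.00088). ITGB1, the partner of most alpha subunits described here, had a change of -0.17 ± 0.14, ITGA4 of 1.05 ± 0.48 and ITGB3 of 1.42 ± 0.33 (adjusted p = 0.11), which passed with the replicate number as a block (0.037). ITGAV had a change of -0.87 ± 0.85, which became a log2 change of 0.0038 without fold array 1 and did not pass in either case (adjusted p = 1.00 with and without that array).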

How the data were processed

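Each of 8 samples was hybridised to 1 Affymetrix chicken genome array, from 6 µg of total RNA per the labels' protocols. The authors deposited 1 linear intensity for each probe set on an array, and the submitters' processing notes name GCOS. Its version, background treatment and detection calls are not given in the sources used here, and the number of arrays limits the precision. The trimmed mean (2% at each end) was 500.1 on every array. The table held 38535 probe sets, of which 96 control probe sets were left out. Values were taken as log2(intensity + 16), which understates changes of dim genes, and quantile normalized, since array medians differed by 0.80. The dimmest probe sets, with a mean under the 40th percentile, were dropped, which kept 23063. The tissues were compared by limma 3.58.1 (lmFit, then eBayes; R 4.3.3), p-values were adjusted by Benjamini and Hochberg's method over every probe set kept, and the threshold was 0.05. The procedure was tested on simulated data with independent arrays. Those data lacked the deviations that the arrays numbered 1 share here, so the simulation does not cover them.

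The background limit of an array was set at the 95th percentile of 59 of its control probe sets, those without a chicken target, on the normalized scale. A gene at or below it on all arrays of a tissue has only a bound there. Marker sums add normalized intensities over each list. Tissue differences are taken within a probe set. Brightness was compared between probe sets of 1 gene only to choose or describe the one that represents it, and it does not rank their transcripts. Symbols came from GEO's annotation of the platform, which can be old, where 27168 probe sets had 1 symbol, 177 several and 11094 none. Of the 73 members, 72 were found by gene ID in the RefSeq table of assembly GRCg7b. No genome build is named in the files, so no coordinates are given, and no sequences were used here. Of 57 tested members, 11 were represented by s_at and 2 by x_at probe sets, whose probes may match several transcripts (LAMB2 and LAMA1 among them).

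Same-numbered arrays deviated together from their tissue means (r = 0.62 for the arrays numbered 1, and 0.19, 0.29 and 0.21 for those numbered 2, 3 and 4), so the numbers were treated as pairing samples in an alternative fit. Among arrays 2 to 4, differently numbered pairs reached like values (0.08 to 0.28), so there the agreement did not follow the number. Alternatives were the normalization, pseudocount, filter, block, prior, probe set rule and arrays left out. The members and lists were chosen with earlier results of these data known. Named were members past the threshold, members with no overlap between tissues, all other tested members by value or range, called genes of the other lists, and tissue markers.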

Additional observations from a re-analysis of the deposited data

Results flagged for a closer look

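In 24 groups of 4 arrays (7 named members and 5 genes of fibronectin and its integrins, in each tissue), 4 held 1 array far from the other 3. Chance gives about 5% of independent groups, but these groups share the same 8 arrays, so that rate is no yardstick here. COL23A1 read 8.10 on neural fold array 1, against 8.89 for the nearest other array. ITGA4 read 9.30 on neural plate array 1, against 10.17 for the nearest. ITGAV read 5.04 on neural fold array 1 and 7.16 on neural plate array 1, against 8.50 and 8.89 for the nearest. All 4 values were the lowest of their group and came from an array numbered 1.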

How the results depend on the processing

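The count of members, 0 higher and 3 lower, moved with the processing. It was 2 higher on the values as deposited and with a pseudocount of 64 (1.87% and 2.06% of all genes called). It was 1 higher with the 60th percentile filter (2.79%), an intensity trend (2.30%), averaged probe sets (1.73%), or without both arrays numbered 1 (3.16%). It was 1 lower with median centring (0.904%), no filter (0.884%), or averaged probe sets. The members tested were 37 with the 60th percentile filter, 73 with no filter and 44 with averaged probe sets, against 57 above. A term for the arrays numbered 1, added after seeing the data, gave 3 higher and 6 lower (4.84% of all genes called). Leaving out 1 array gave 0 to 1 higher and 0 to 3 lower, and 85 to 183 genes called in all against 180. With the replicate number as a block the same 3 members were lower (2.30% of all genes called). The 7 named members did not overlap between the tissues, so leaving out arrays could not turn the sign of their changes. The block, the term for the arrays numbered 1, the intensity trend and the filters leave the change itself as it was. In the other alternatives that tested them, which alter the values or average probe sets, these changes also kept their sign.

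Collagen processing genes, 0 lower, were 1 lower on the values as deposited, and 2 lower with the filter at the 60th percentile, the block, an intensity trend or without both arrays numbered 1, and 0 to 1 with 1 array left out. Other matrix genes, 0 higher, were 1 higher with a pseudocount of 64, the filter at the 60th percentile, the block, an intensity trend or without both arrays numbered 1, and 0 to 1 with 1 array left out, while 2 lower became 1 with median centring and 3 with the block (SMOC1 added) or the mean of probe sets (EMILIN3 added). Integrin linkage genes, 0 higher, were 1 higher (PTK2) on the values as deposited, with the filter at the 60th percentile, an intensity trend or without both arrays numbered 1. The 1 lower, ITGBL1, became 0 without both arrays numbered 1 or with the mean of probe sets, and 0 to 1 with 1 array left out. The 1 higher of fibronectin and its integrins became 2 with median centring, the block or without both arrays numbered 1, and 1 to 2 with 1 array left out, and their median of 1.05 became 0.57 with the mean of probe sets. The median of the other matrix receptors, -0.22, ranged from -0.26 to -0.14 with 1 array left out, and the term for the arrays numbered 1 moved their count from 0 to 1 higher and 2 lower. Over the alternatives without that term the median of the members ranged from -0.11 to 0.06, that of collagen processing from -0.21 to -0.03, that of other matrix from -0.14 to 0.15 and that of integrin linkage from 0.10 to 0.20. The change of ITGAV, -0.87, ranged from -1.34 to 0.0038 with 1 array left out, above 0 only without fold array 1. The causes were not tested, except that leaving out arrays leaves fewer samples. Signal over background limits LAMB2, COL12A1, the 16 members not tested, and other tested members not above the limit on every array. TNC and COL14A1 are among these.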
